A study of Mus musculus with 2 samples.

Results

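The genes described here are the glutathione transferases and the aldo-keto reductases of sorted fetal mouse thymic epithelium. They are all symbols of the deposited tables that begin with Gsta, Gstk, Gstm, Gsto, Gstp, Gstt, Gstz, Mgst or Akr and a number, which gave 24 transferases and 16 reductases, 40 of 25791 genes. RNA was measured in 2 libraries of fetal thymic cells taken at 15 days post coitum and sorted for EpCAM, a surface protein of epithelium, without CD45 (blood cells) or PDGFRa (mesenchyme). The library titled B6J is of strain C57BL/6. The library titled humanCD3eTg is of strain C57BL/6J x CBA/J, and its title names a human CD3E transgene. The study set thymic epithelium with thymocytes beside thymic epithelium without them. Transgenic mice with many copies of human CD3E are known to lack T cells, whereas the treatment label gives thymocytes as present in humanCD3eTg and as absent in B6J, so the libraries are called by their titles throughout. Transgene, strain and thymocyte state cannot be told apart in this design, and how many embryos or sorts each library holds is not given in the labels. With 1 library per group there was no replicate, and no test of any difference was possible.

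Glutathione transferases join the tripeptide glutathione to reactive compounds, such as lipid aldehydes, epoxides and drugs, which can then be exported. The cytosolic enzymes form classes named alpha, mu, pi, theta, omega and zeta, the kappa enzyme sits in mitochondria and peroxisomes, and the microsomal enzymes belong to a separate family of membrane proteins. Aldo-keto reductases use NADPH to reduce aldehydes and ketones, among them sugars, lipid aldehydes and steroids. Many genes of both families are known targets of NRF2 (encoded by Nfe2l2), a transcription factor that KEAP1 holds in check and that binds antioxidant response elements.

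Levels are given as FPKM, the fragments of a gene per kilobase of transcript, scaled to the mapped fragments of the library. Where values are paired, that of B6J comes first. Each log2 ratio is that of humanCD3eTg over B6J on FPKM + 1, a scale that understates differences of low genes, and 2-fold means a ratio of at least 1 in size on that scale. Only genes that averaged 1 FPKM or more over both libraries were kept for counts, and these are called retained genes. Plain folds of FPKM carry a 95% interval of counting error alone, from fragment numbers estimated from the steps of low values (about 19900000 fragments in B6J and 15800000 in humanCD3eTg). That interval holds no spread between animals, sorts or library preparations. Of the 13493 retained genes, 284 were at least 2-fold higher in humanCD3eTg and 603 at least 2-fold lower (6.57% past the limit in either direction), and the median log2 ratio was -0.05. After quantile normalization these counts were 371 and 503.

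The sorted cells carried the markers of thymic epithelium, all 15 of them above 9 FPKM in both libraries, with summed levels of 8454 FPKM in B6J and 8496 FPKM in humanCD3eTg. Within the list 10 of the 15 were lower in humanCD3eTg by any amount, beside 55.4% of all retained genes. Foxn1 (91.1 and 43.7 FPKM) and Krt14 (22.9 and 9.05 FPKM) were at least 2-fold lower, and Krt5 (280.2 and 955.5 FPKM) was at least 2-fold higher. Markers of other cells differed as well. The 10 thymocyte markers summed to 136.3 and 3.63 FPKM, with 8 of them at least 2-fold lower in humanCD3eTg, where Cd3d, Cd3g and Cd4 were listed at 0 (Cd8a was so in B6J). The 10 pan-haematopoietic markers summed to 86.0 and 11.2 FPKM (9 at least 2-fold lower), and the 10 endothelial markers to 61.3 and 17.6 FPKM (8 at least 2-fold lower). The 12 markers of neural crest, pigment cells and glia went the other way, at 30.5 against 189.7 FPKM (9 at least 2-fold higher), with Mlana listed at 0 in B6J and Tyrp1 in both. Markers of mesenchyme summed to 198.9 and 234.3 FPKM, although 6 of the 9 retained ones were lower in humanCD3eTg, beside 55.4% of all retained genes. The median log2 ratio of the 9 was -0.38, and 1 was at least 2-fold lower. Those of erythroid cells summed to 2609 and 1578 FPKM, with all 4 retained ones lower in humanCD3eTg. Macrophage markers summed to 17.8 and 12.1 FPKM, with 2 of the 4 retained ones higher and 2 lower. Those of thyroid and parathyroid summed to 952.7 and 1189 FPKM, with 3 of the 5 retained ones higher and 2 lower. Most of that sum was Pth (679.1 and 875.1 FPKM) and Chga (262.9 and 306.9 FPKM). Fewer cells of a type and less RNA per cell cannot be told apart here. The part of these cells in the differences below was not tested.

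Most retained glutathione transferases stood higher in humanCD3eTg, whereas the retained aldo-keto reductases differed little apart from Akr1c12 and Akr1c13, which stood far lower. Of the 24 transferases 21 were retained, and 18 of these were higher in humanCD3eTg by any amount, beside 44.6% of all genes. At least 2-fold higher were 6 of them, Gsta1, Gsta2, Gsta3, Gstm1, Gstm7 and Gstt3, beside 2.1% of all genes, and none was at least 2-fold lower, beside 4.47%. The median log2 ratio of the 21 was 0.63. By level, of the 10 retained transferases with a mean of 1 to 10 FPKM all 10 were higher and 4 at least 2-fold, beside 41% and 2.87% of genes of that level, and of the 11 with at least 10 FPKM 8 were higher and 2 at least 2-fold, beside 48.2% and 1.33%. Gsta1 and Gsta3 were retained only through their level in humanCD3eTg. Among the 19 transferases with at least 1 FPKM in both libraries, 16 were higher by any amount, beside 5722 of 12615 such genes. Of these 19 transferases 4 were at least 2-fold higher, beside 1.26% of the 12615 genes. Of the 16 reductases 8 were retained. Of these 6 were lower in humanCD3eTg by any amount, beside 55.4% of all genes, 2 of them at least 2-fold (Akr1c12 and Akr1c13, which were retained only through B6J), and none was at least 2-fold higher. Both lie among the 4 retained reductases with a mean of 1 to 10 FPKM, where the share of all genes past the lower limit was 6.11%, and none of the 4 at a mean of at least 10 FPKM was (2.81% of genes of that level). Of the 6 reductases with at least 1 FPKM in both libraries none was at least 2-fold lower, beside 2.44% of all such genes. The median over the 8 was -0.19. On FPKM + 0.1 the 2-fold calls were 8 transferases higher, beside 3.51% of all genes, and 2 reductases lower, beside 6.69%.

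Summed over all 24 genes, transferase transcripts stood at 501.6 FPKM in B6J and 746.3 FPKM in humanCD3eTg, a ratio of 1.49. The reductases summed to 457.5 and 443.3 FPKM. Akr1a4 alone made up 313.8 and 337.4 FPKM of this, and the most abundant transferases were Gstp1 and Gsta4.

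**Figure D1:**
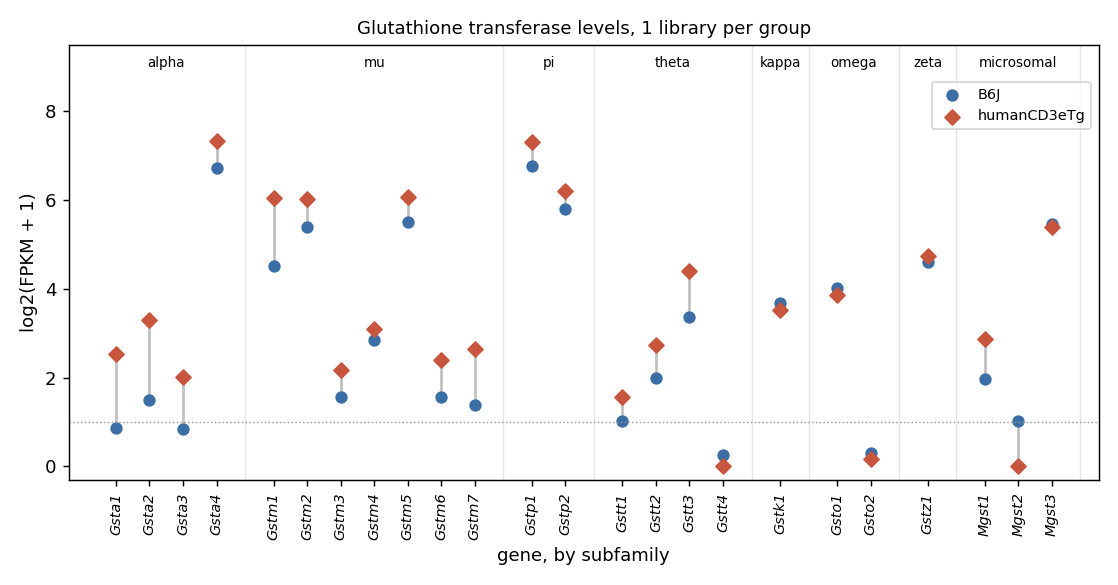
Level of each of the 24 glutathione transferases as log2(FPKM + 1) in B6J (circles) and humanCD3eTg (diamonds), 1 library each, ordered by class; the dotted line marks 1 FPKM. All genes of the alpha, mu and pi classes stand higher in humanCD3eTg, while Gstk1, Gsto1 and Mgst3 lie close together, and Mgst2 and Gstt4 are at 0 in humanCD3eTg.

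The alpha class held the largest ratios among the transferases. Gsta2, which conjugates electrophiles, stood at 1.83 FPKM in B6J and 8.77 FPKM in humanCD3eTg. This is 4.79-fold higher (2.93 to 7.97, log2 ratio 1.79) and rests on about 22 and 83 fragments. Gsta1, its close relative, stood at 0.831 against 4.75 FPKM, 5.72-fold higher (2.94 to 12.2, log2 ratio 1.65), from about 11 and 50 fragments. Gsta3, known in mouse liver for conjugating the epoxide of aflatoxin, stood at 0.784 against 3.01 FPKM, 3.85-fold higher (1.86 to 8.27, log2 ratio 1.17). All 3 were thus low genes in B6J, and 87 of 13493 genes had a ratio above that of Gsta2. Gsta4, the enzyme that removes the lipid aldehyde hydroxynonenal, was the abundant gene of the class, at 104.9 against 160.1 FPKM. Its difference was smaller, 1.53-fold (1.42 to 1.64, log2 ratio 0.61). The summed level of the class was therefore set by Gsta4 and stood at 108.3 against 176.7 FPKM.

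The split between Gsta1 and Gsta2 is uncertain. In GENCODE transcripts, 89.7% of the 50-base windows of Gsta1 and 47.4% of those of Gsta2 were found in transcripts of another gene, for Gsta1 mostly in the gene model Gm3776. Gm3776 itself stood at 0.450 against 2.59 FPKM and Gm10639, a second such model, at 0.566 against 2.69 FPKM. The sum of the 4 genes was 3.68 FPKM in B6J and 18.8 FPKM in humanCD3eTg, a ratio of 5.11. Gsta3 and Gsta4 shared no window with another gene.

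The bases just before the RefSeq starts of Gsta1 and Gsta2 are shown because these genes had the largest ratios, and that of Gsta3 because it holds a match to the core of the antioxidant response element. In the first pair capitals mark the bases that differ from, or are missing in, the other sequence within their aligned stretch, and in Gsta3 they mark the match.
Gsta1 (GRCm38.p6, chr9:78230419-78230668, plus strand): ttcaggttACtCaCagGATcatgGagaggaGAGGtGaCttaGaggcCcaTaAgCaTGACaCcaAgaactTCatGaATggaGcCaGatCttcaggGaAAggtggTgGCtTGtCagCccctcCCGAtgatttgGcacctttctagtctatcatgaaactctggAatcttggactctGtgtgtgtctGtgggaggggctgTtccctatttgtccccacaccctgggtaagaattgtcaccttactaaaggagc
Gsta2 (GRCm38.p6, chr9:78347193-78347395, minus strand): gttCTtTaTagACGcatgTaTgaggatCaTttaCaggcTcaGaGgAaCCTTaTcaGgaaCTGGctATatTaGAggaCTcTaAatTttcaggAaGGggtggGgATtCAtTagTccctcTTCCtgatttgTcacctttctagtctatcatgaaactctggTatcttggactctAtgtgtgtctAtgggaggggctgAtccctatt
Gsta3 (GRCm38.p6, chr1:21240335-21240564, plus strand): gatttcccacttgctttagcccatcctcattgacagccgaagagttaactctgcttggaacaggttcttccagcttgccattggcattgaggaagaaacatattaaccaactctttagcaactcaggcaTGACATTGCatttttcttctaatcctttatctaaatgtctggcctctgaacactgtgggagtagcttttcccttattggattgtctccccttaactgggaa
Over 207 aligned columns Gsta1 and Gsta2 were identical in 71.5%. The aligned stretch of Gsta2 holds 203 bases and ends before its outermost RefSeq start. The bases nearest the start of its searched window are therefore not part of that share. The core was searched as TGACNNNGC on both strands in windows from 250 bases before to 50 after each start. Gsta3 held TGACATTGC from position -121 on the plus strand, and these letters were not in the windows of Gsta1 and Gsta2. Positions are counted from the start on which the window was set, negative before it. The printed stretch of Gsta3, 230 bases, ends before another RefSeq start further upstream, so its end is not that start. The search covered 36 of the 40 members (Akr1b3, Akr1c20, Gsta4 and Gstt2 had no entry). The core was in 5 of the 45 windows of these members (11.1%), beside 12.4% of 32817 windows of all genes. The 5 were those of Gsta3, Gstm5, Gstm7, Mgst1 and Akr1c19, the last holding GCTTAGTCA on the reverse strand from position 8 after its start and standing at 0.241 FPKM in B6J with a listed value of 0 in humanCD3eTg.

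The mu class was higher throughout, in all 7 of its genes, with a median log2 ratio of 0.63. Gstm1, which conjugates a wide range of electrophiles, stood at 21.9 FPKM in B6J and 65.0 FPKM in humanCD3eTg. At 2.97-fold (2.59 to 3.41, log2 ratio 1.53) it was the largest difference of an abundant transferase, from about 294 and 694 fragments. Gstm2 and Gstm5 stood at 41.2 against 64.4 FPKM (1.56-fold, 1.40 to 1.74) and at 44.5 against 66.3 FPKM (1.49-fold, 1.31 to 1.69). In B6J, Gstm1 thus stood at a lower level than either, and in humanCD3eTg all 3 lay between 64 and 67 FPKM. The rest of the class was lower in level. Gstm7 stood at 1.59 against 5.27 FPKM, 3.32-fold higher (1.87 to 6.20, log2 ratio 1.28). Gstm6 stood at 1.95 against 4.26 FPKM (2.18-fold, 1.35 to 3.55), and Gstm3 at 1.93 against 3.53 FPKM (1.83-fold, 1.23 to 2.81). Gstm4 differed least, at 6.20 against 7.59 FPKM, and its interval of 0.972 to 1.54 includes no difference. Summed over the class, the level was 119.3 FPKM in B6J and 216.4 FPKM in humanCD3eTg, a ratio of 1.81. Of the 50-base windows of Gstm3 28.8% and of Gstm1 19.9% were shared with other genes, mainly gene models and pseudogenes of the class. For Gstm6 and Gstm2 these shares were 9.74% and 8.30%, that of Gstm6 mostly with Gstm3 (5.69%). Gstm1 also shared windows with Gstm2 and Gstm3, so the separate values of Gstm1, Gstm2, Gstm3 and Gstm6 are uncertain to that extent. Gstm4 and Gstm5 shared none and Gstm7 0.532%.

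Gstm5 held the match TGACCACGC from position -42, and Gstm7 held TGACAAAGC from position -129 of the second of its RefSeq starts, both on the plus strand. The stretch before Gstm5 is shown as the abundant member with such a match, in capitals.
Gstm5 (GRCm38.p6, chr3:107895604-107895853, plus strand): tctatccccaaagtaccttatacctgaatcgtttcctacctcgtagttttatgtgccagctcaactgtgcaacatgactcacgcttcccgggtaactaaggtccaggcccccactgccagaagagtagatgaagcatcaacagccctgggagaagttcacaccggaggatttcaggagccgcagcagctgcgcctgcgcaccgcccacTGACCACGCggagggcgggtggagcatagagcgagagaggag

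Both pi class genes were abundant and moderately higher. Gstp1, the transferase that also binds the stress kinase JNK, stood at 108.2 FPKM in B6J and 156.3 FPKM in humanCD3eTg, 1.45-fold higher (1.34 to 1.56, log2 ratio 0.53). Gstp2, its neighbour and near copy, stood at 54.6 against 72.2 FPKM, 1.32-fold higher (1.12 to 1.56, log2 ratio 0.40). The genes share 51.0% and 50.4% of their 50-base windows with each other or a pseudogene, so their separate values are uncertain. Their sum was 162.7 and 228.5 FPKM, a ratio of 1.40.

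Theta class enzymes, which act on small halogenated compounds, were higher in all 3 retained genes. Gstt3 stood at 9.25 FPKM in B6J and 20.1 FPKM in humanCD3eTg, 2.18-fold higher (1.69 to 2.80), the log2 ratio of 1.05 being just past the 2-fold limit. Gm20441, a gene model, accounts for most of the 20.6% of windows that Gstt3 shared. Gstt2 stood at 2.96 against 5.63 FPKM (1.90-fold, 1.33 to 2.79), and Gstt1 at 1.02 against 1.97 FPKM (1.93-fold, 1.0 to 3.78, about 17 and 26 fragments). Gstt4 had 0.197 FPKM in B6J and a listed value of 0 in humanCD3eTg, where 3 fragments would give 0.251 FPKM. The class summed to 13.4 and 27.7 FPKM.

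The remaining retained transferases differed little, apart from Mgst1, and Mgst2, not retained, had a listed value of 0 in humanCD3eTg. Gstk1, the kappa enzyme, stood at 11.8 against 10.5 FPKM (0.888-fold, 0.696 to 1.13). Gsto1, an omega enzyme that reduces dehydroascorbate, stood at 15.3 against 13.5 FPKM (0.885-fold, 0.696 to 1.12), and Gsto2 stayed below 0.3 FPKM in both. Gstz1, which acts in tyrosine breakdown as maleylacetoacetate isomerase, stood at 23.2 against 25.8 FPKM (1.11-fold, 0.978 to 1.27). The intervals of these 3 named ratios all include no difference. Mgst3, a microsomal enzyme with glutathione peroxidase activity, stood at 43.3 against 40.7 FPKM (0.939-fold, 0.841 to 1.05). Mgst1, a microsomal transferase of the endoplasmic reticulum and mitochondrial outer membrane, stood at 2.91 against 6.32 FPKM, 2.17-fold higher (1.41 to 3.36). On FPKM + 1 its log2 ratio was 0.91, below the 2-fold limit. Mgst2, which can make leukotriene C, had 1.04 FPKM in B6J (about 6 fragments) and a listed value of 0 in humanCD3eTg, where 3 fragments would give 0.686 FPKM.

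Mgst1 was the third transferase whose first window held the core in the stretch before the start, here on the reverse strand as GCACGGTCA from position -56, in capitals.
Mgst1 (GRCm38.p6, chr6:138140277-138140526, plus strand): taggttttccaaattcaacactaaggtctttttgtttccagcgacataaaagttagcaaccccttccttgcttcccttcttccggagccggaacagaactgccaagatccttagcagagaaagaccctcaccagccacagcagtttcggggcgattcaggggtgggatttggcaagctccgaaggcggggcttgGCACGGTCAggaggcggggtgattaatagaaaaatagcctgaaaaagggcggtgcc

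**Figure D2:**
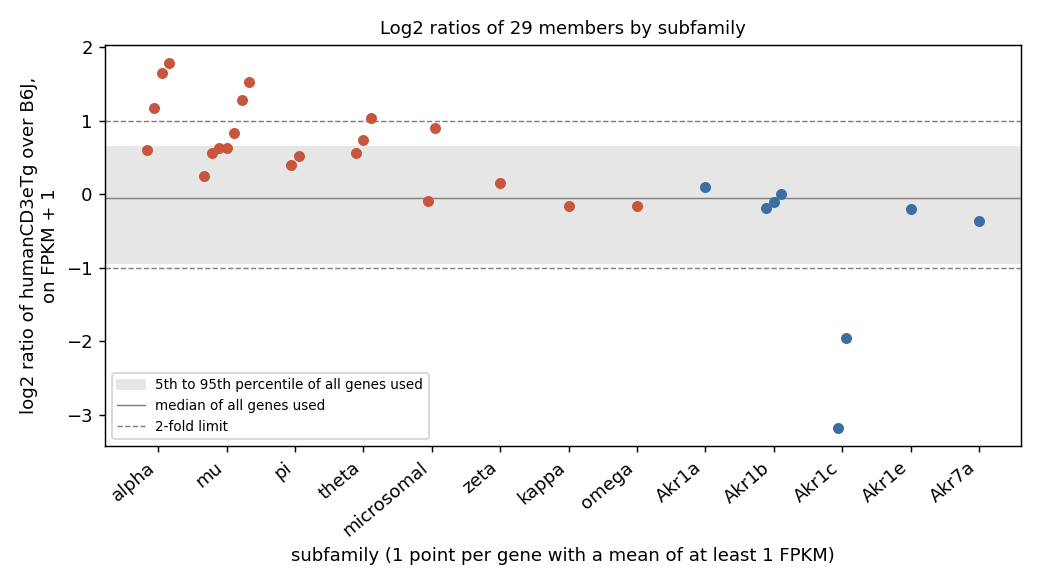
Log2 ratio of humanCD3eTg over B6J on FPKM + 1 for the 29 retained members, 1 point per gene, by subfamily (transferases red, reductases blue); the grey band spans the 5th to 95th percentile of all 13493 genes (-0.93 to 0.65), the solid line is their median and dashed lines mark the 2-fold limit. The alpha, mu and theta classes lie above the median of all genes, and Akr1c12 and Akr1c13 are the 2 points below the lower limit.

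The Akr1c genes stood apart from the other reductases. They encode the branch of hydroxysteroid dehydrogenases, and 2 of the 8 reached 1 FPKM, both in B6J alone. Akr1c13 stood at 10.3 FPKM in B6J and 0.245 FPKM in humanCD3eTg, 41.8-fold lower (16.5 to 158.4, log2 ratio -3.18), on about 215 and 4 fragments. Of 13493 genes 48 had a smaller ratio. Akr1c12 stood at 5.01 against 0.553 FPKM, 9.06-fold lower (4.71 to 20.9, log2 ratio -1.95), on about 105 and 9 fragments. Each shared 28.6% of its 50-base windows with the other and none with a further gene, so their split is uncertain. Their sum, 15.3 FPKM in B6J and 0.798 FPKM in humanCD3eTg, was 19.1-fold lower in humanCD3eTg. The thymocyte, pan-haematopoietic and endothelial markers were lower in the same library, as given above, and their part in this difference was not tested.

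The stretches before the starts of both genes are shown because the genes differed in the same direction and lie in 1 cluster. Capitals mark the bases that differ from, or are missing in, the other within their aligned stretch, and bases beyond it are in lower case.
Akr1c12 (GRCm38.p6, chr13:4279400-4279649, minus strand): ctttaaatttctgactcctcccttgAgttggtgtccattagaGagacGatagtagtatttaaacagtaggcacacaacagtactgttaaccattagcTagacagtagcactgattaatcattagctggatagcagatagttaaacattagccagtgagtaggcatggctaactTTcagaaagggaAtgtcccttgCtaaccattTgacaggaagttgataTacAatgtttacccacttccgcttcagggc
Akr1c13 (GRCm38.p6, chr13:4190937-4191167, plus strand): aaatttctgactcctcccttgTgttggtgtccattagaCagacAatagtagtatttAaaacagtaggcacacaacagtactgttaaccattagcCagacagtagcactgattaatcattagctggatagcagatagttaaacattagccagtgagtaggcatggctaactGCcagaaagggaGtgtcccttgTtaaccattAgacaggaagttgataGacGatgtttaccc
Over 231 aligned columns 219 were identical (94.8%). The 71.5% of Gsta1 and Gsta2 is of a different stretch. It leaves out more of the bases nearest the window start, so the 2 shares are not directly comparable. Neither the window of Akr1c12 nor that of Akr1c13 held TGACNNNGC, the AP-1 site TGANTCA or the TATA box TATAAA on either strand. Those letters were in 12.4%, 7.81% and 13.6% of the windows of all genes. Of the 45 member windows they were in 11.1%, 8.89% and 15.6%, so most member windows lacked each of them. The AP-1 site was in windows of 4 members, Gstp1, Gstp2, Gstm5 and Mgst2. The TATA box was in windows of 7, among them Gstm1 at position -30. TGANTCA and TGACNNNGC can overlap in their first letters.

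The other Akr1c genes were near or at 0. Akr1c18, which inactivates progesterone, stood at 0.310 against 0.391 FPKM. Akr1c19 and Akr1c14 had 0.241 and 0.0446 FPKM in B6J and listed values of 0 in humanCD3eTg. Akr1c6, Akr1c20 and Akr1c21 were listed at 0 in both libraries, as was Akr1d1, a reductase of bile acid synthesis. A value of 3 fragments in these 4 genes would be 0.0605 to 0.362 FPKM.

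The reductases of aldehydes and sugars were similar in both libraries. Akr1a4, the aldehyde reductase that serves vitamin C synthesis in mice (now named Akr1a1), was the highest of all members at 313.8 FPKM in B6J and 337.4 FPKM in humanCD3eTg, 1.08-fold higher (1.03 to 1.12). Akr7a5, which reduces aflatoxin dialdehyde and succinic semialdehyde, stood at 85.0 against 66.2 FPKM, 0.779-fold (0.722 to 0.839). Akr1b3, the aldose reductase, stood at 16.0 against 14.0 FPKM (0.871-fold, 0.713 to 1.06), with 55.2% of its windows shared, mostly with the gene model Gm6644. Akr1b10 stood at 8.74 against 8.76 FPKM (1.0-fold, 0.794 to 1.26) and Akr1b8 at 4.09 against 3.73 FPKM (0.912-fold, 0.662 to 1.27). Akr1b7, known from vas deferens and adrenal gland, was listed at 0 in both libraries. Akr1e1, which reduces anhydrofructose, stood at 14.0 against 12.1 FPKM (0.861-fold, 0.775 to 0.955). None of the 6 retained reductases outside the Akr1c group differed by 2-fold. The directions of Akr1b8 and Akr1b10 are not stable, since quantile normalization turned that of Akr1b8 and a rescaling that left out genes of haemoglobin, mitochondria and ribosomal proteins turned that of Akr1b10.

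**Figure D3:**
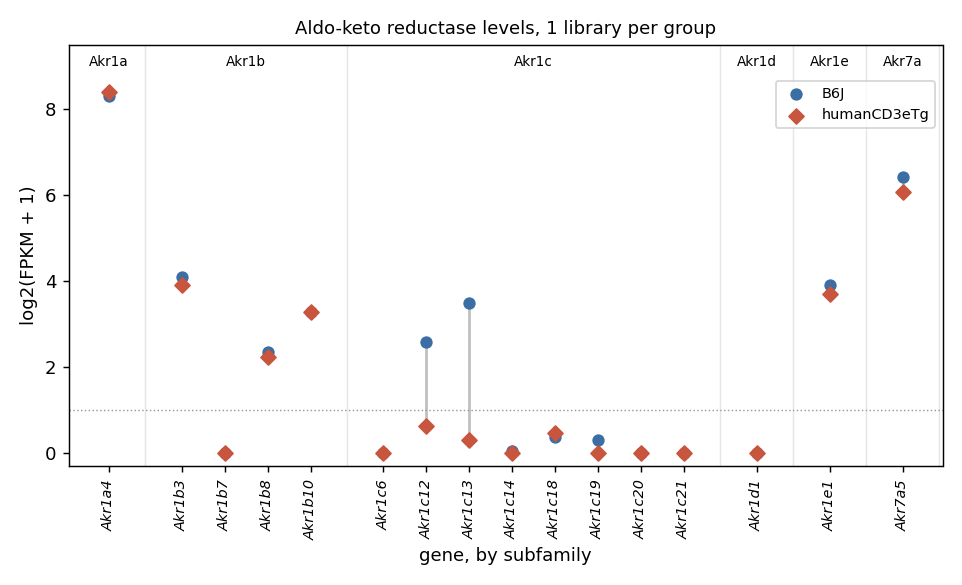
Level of each of the 16 aldo-keto reductases as log2(FPKM + 1) in B6J (circles) and humanCD3eTg (diamonds), 1 library each, by subfamily; the dotted line marks 1 FPKM. The markers nearly coincide for Akr1a4, Akr1b, Akr1e1 and Akr7a5, while Akr1c12 and Akr1c13 lie above the line in B6J only.

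Several members lie beside each other in the genome, as do gene models that resemble them. In the RefSeq gene order the mu genes follow one another as Gstm5, Gstm7, Gstm6, Gstm3, Gstm2, Gstm1 and Gstm4, so the largest ratios, those of Gstm7 and Gstm1, were not neighbours. Akr1c13 and Akr1c12 are separated by Akr1c19, and Akr1e1 ends the same cluster with a log2 ratio of -0.20. Within or beside the Gsta, Gstm, Gstt, Gstp, Akr1c and Akr1b clusters 29 other genes were retained, of which 2 were at least 2-fold higher, the gene models Gm3776 and Gm10639 described above. Of all 29, 13.8% were past the limit in either direction, beside 6.57% of all genes. Of the other 27 none was at least 2-fold higher, beside 2.1% of all genes, and 2 (7.41%) were at least 2-fold lower, beside 4.47%. These were Ooep near Gsta2 (2.95 and 0.579 FPKM) and Slc35b4 beside Akr1b3 (7.18 and 2.71 FPKM). Csf1, near the mu cluster, stood at 15.4 against 7.42 FPKM with a log2 ratio of -0.96. Ddt, beside Gstt3, had the highest ratio of the 27, at 70.1 against 101.2 FPKM (0.53).

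**Figure D4:**
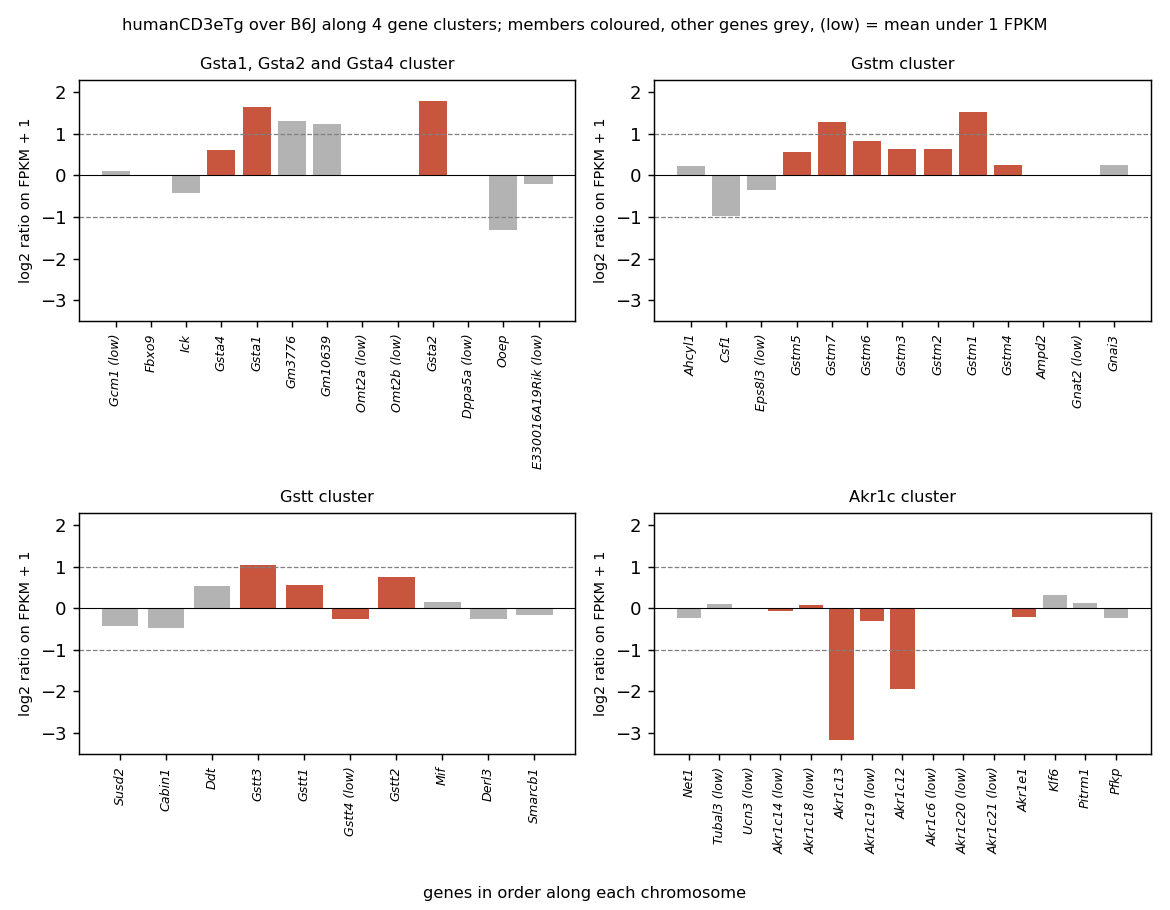
Log2 ratio of humanCD3eTg over B6J on FPKM + 1 for genes in chromosomal order in 4 clusters, with up to 3 other genes on each side; members are red, other genes grey, dashed lines mark the 2-fold limit and (low) marks a mean under 1 FPKM. All 7 mu genes lie above 0, and only Akr1c13 and Akr1c12 pass the lower limit in the Akr1c cluster.

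Genes that make, recycle and export glutathione were near the median of all genes as a group. Of 20 genes 16 were retained, with a median log2 ratio of -0.09. None was at least 2-fold higher and 1 at least 2-fold lower, beside 2.1% and 4.47% of all retained genes. Gclc and Gclm, the subunits of the rate-limiting ligase, stood at 12.8 against 13.7 FPKM and at 15.0 against 12.7 FPKM. Gss, the synthetase, stood at 17.9 against 16.8 FPKM, Gsr, which reduces oxidised glutathione, at 18.5 against 17.4 FPKM, and Slc7a11, the cystine importer, at 4.10 against 4.60 FPKM. Slc3a2, the partner chain of that importer, stood at 52.1 against 47.6 FPKM, and the peptidase genes Lap3 and Cndp2 at 20.1 against 26.9 FPKM and at 18.3 against 14.4 FPKM. The gene past the limit was Abcc1, an exporter of glutathione conjugates, at 14.5 FPKM in B6J and 5.25 FPKM in humanCD3eTg (-1.31). Abcc4, a related exporter, stood at 3.10 against 1.84 FPKM (-0.53), and Chac2, which degrades glutathione, at 1.73 against 3.76 FPKM (0.80).

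NRF2 and the listed targets outside the members differed in both directions, more of them higher in humanCD3eTg. Of 27 genes 25 were retained, and 17 of these were higher by any amount, beside 44.6% of all retained genes. None of the 25 was at least 2-fold higher, beside 2.1%, and 1 (Abcc1) was at least 2-fold lower, beside 4.47%. These counts hold for this list only, which is not complete. It leaves out Gpx2, counted with the peroxidases below (log2 ratio 1.48). Aldh3a1, listed but not retained, stood at 1.65 against 0.0453 FPKM. The median was 0.09, beside -0.05 over all retained genes. Nfe2l2 stood at 30.4 against 39.0 FPKM (0.35) and Keap1 at 12.3 against 9.37 FPKM (-0.36). Among the targets Nqo1, a quinone reductase, stood at 123.6 FPKM in B6J and 207.9 FPKM in humanCD3eTg (0.75), Srxn1, which repairs peroxiredoxins, at 71.1 against 121.9 FPKM (0.77), and Osgin1 at 0.739 against 2.26 FPKM (0.91). Hmox1, the haem oxygenase, went the other way at 69.3 against 54.7 FPKM (-0.34). The ferritin genes Fth1 and Ftl1 stood at 943.2 against 958.3 FPKM and at 651.9 against 787.6 FPKM, and Taldo1, of the pentose phosphate pathway, at 123.1 against 128.1 FPKM.

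Peroxidases and thioredoxin genes were close to equal, with a median of 0.08 over 25 of 27 genes. Prdx2, Sod1 and Txn1, the most abundant, stood at 521.7 against 509.3 FPKM, 405.4 against 461.8 FPKM, and 418.3 against 351.0 FPKM. Prdx1 stood at 280.2 against 366.8 FPKM and Gpx4, which protects membrane lipids, at 245.0 against 226.4 FPKM. The 1 gene past the 2-fold limit was Gpx2, the epithelial glutathione peroxidase, at 0.116 against 2.12 FPKM (1.48). Gpx7 stood at 7.71 against 12.9 FPKM (0.67).

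Relatives of the members that carry other symbols showed no common direction, with a median of -0.09 over 13 of 19 genes. Hpgds, the sigma class transferase that makes prostaglandin D, stood at 2.03 against 1.73 FPKM. Kcnab2, a potassium channel subunit with an aldo-keto reductase fold, stood at 4.79 against 0.721 FPKM (-1.75). The chloride channel genes of transferase fold Clic3 and Clic6 stood at 2.18 against 0.318 FPKM (-1.27) and at 0.226 against 2.01 FPKM (1.30), while Clic1, Clic4 and Clic5 stood at 207.9 against 210.6 FPKM, 54.3 against 53.8 FPKM, and 22.4 against 15.9 FPKM. Eef1g and Eef1e1, translation factors with a transferase-like domain, stood at 738.4 against 877.1 FPKM and at 21.5 against 26.3 FPKM.

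Other carbonyl-handling and drug-metabolising genes were near the median of all genes as groups, at -0.03 over 24 of 28 genes and -0.08 over 16 of 28. Cbr2, a carbonyl reductase, stood at 55.3 FPKM in B6J and 16.1 FPKM in humanCD3eTg (-1.72). Glo1, which detoxifies methylglyoxal with the help of glutathione, stood at 67.7 against 143.7 FPKM (1.08), Aldh3b1 at 4.55 against 10.8 FPKM (1.09) and Aldh2, the mitochondrial aldehyde dehydrogenase, at 57.2 against 84.1 FPKM (0.55). Adh5, Sord and Esd stood at 77.9 against 80.8 FPKM, 71.2 against 75.6 FPKM, and 66.3 against 77.6 FPKM. Cyp1a1, a target of the aryl hydrocarbon receptor, stood at 3.70 against 0.163 FPKM (-2.01), Cyp26b1, which degrades retinoic acid, at 21.0 against 10.1 FPKM (-0.99), and Ces3, a carboxylesterase gene now named Ces1d, at 0.936 against 5.41 FPKM (1.73). Comt1, Por and Arnt stood at 88.2 against 59.0 FPKM, 27.9 against 28.7 FPKM, and 16.6 against 16.1 FPKM, and Ephx2 at 7.28 against 6.85 FPKM. Over the 108 distinct retained genes of all these lists, 5 were at least 2-fold higher and 5 at least 2-fold lower, with a median of -0.02. The shares of all retained genes past these limits were 2.1% and 4.47%. Among the 99 with at least 1 FPKM in both libraries, 2 were at least 2-fold higher and 2 at least 2-fold lower. For all genes at that level in both the shares were 1.26% and 2.44%. The 21 transferases had a median of 0.63.

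**Figure D5:**
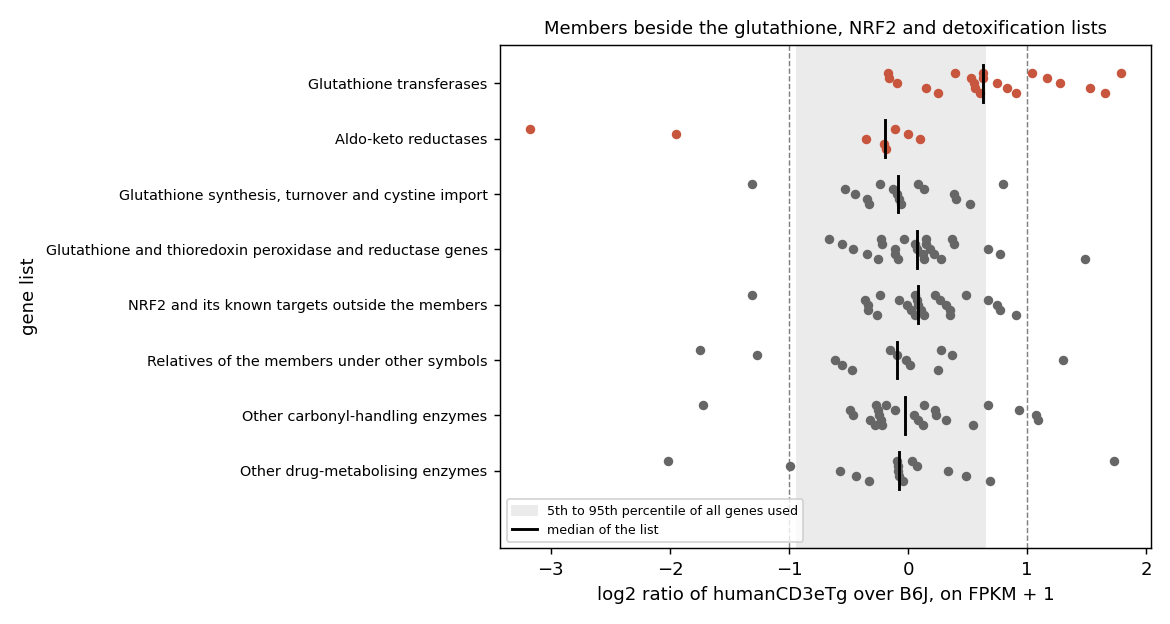
Log2 ratio of humanCD3eTg over B6J on FPKM + 1 for members (red) and for the other gene lists (grey), 1 point per retained gene; black bars are list medians, the grey band is the 5th to 95th percentile of all genes and dashed lines mark the 2-fold limit. The median of the transferases, 0.63, stands to the right of the medians of the other lists, which lie between -0.19 and 0.09.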

How the data were processed

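Sorted cells went into TRIzol and libraries were made from total RNA by the TruSeq RNA method, per the labels' protocols. For each library the authors deposited FPKM values of 25791 symbols. The tools were TopHat2 2.0.8, Cufflinks 2.1.1 and Bowtie2 2.1.0, with mm9 as the build, per the submitters' processing notes, which give them no roles. The annotation used, and whether counting was by strand, is not given in the sources used here; reads of overlapping or antisense genes may therefore be mixed. Groups came from the titles. Members, gene lists and alternatives were chosen with earlier results of these data known.

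The log2 ratio was computed on FPKM + 1 for genes averaging 1 FPKM or more. All members at that level are named, with up to 5 most abundant and up to 3 most different genes of each list and 9 genes fixed by name; of the lower members, those with at least 1 FPKM in 1 library and others chosen after their values were seen. Of the symbols in the lists, 1 drug-metabolising gene and 2 erythroid genes were not found.

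The tables hold no counts. Values of 438 and 347 low genes with 1 GENCODE M21 transcript fell on steps, with 210 bases subtracted from the length, of 0.0502 FPKM per fragment over 1 kb in B6J and 0.0631 in humanCD3eTg. Of them 55.9% and 59.7% lay within 0.1 of a whole fragment, where values spread evenly would give 20% for a step set beforehand. The steps and the subtracted bases were chosen to fit these same genes, so that comparison overstates the fit. Fragment numbers are approximate. They used the median length of a gene's coding transcripts and are uncertain for genes with near copies or several isoforms. The interval of a fold is an exact Clopper-Pearson interval of the estimated fragments and covers counting error only. An FPKM of at most 0.001 is called listed at 0, which can be a failed estimate, and no fold is given for it. GENCODE M21 and RefSeq sequences are of GRCm38 (RefSeq GRCm38.p6), not the authors' build. Printed stretches end before the outermost RefSeq start of the gene. Python 3.11.15, numpy 2.4.6, pandas 2.3.3, scipy 1.17.1 and Biopython 1.88 were used, and the computation was tested on simulated data.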

Additional observations from a re-analysis of the deposited data

How the results depend on the processing

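All 8 members that were at least 2-fold different kept their direction under pseudocounts of 0.1 and 5 FPKM, median centring, quantile normalization and a rescaling that left out genes of haemoglobin, mitochondria and ribosomal proteins. A pseudocount added to both values cannot turn a direction, and median centring moved ratios by 0.05 only. The rescaling moved the median of all genes from -0.05 to -0.08. Kept directions under these settings were thus to be had in advance and are no support. All 8 also stayed past the limit under the 5 settings except with the pseudocount of 5, where 3 did (Gstm1, Gsta2 and Akr1c13). Counts at least 2-fold higher and lower are given below where they changed by more than 1.5-fold, or to or from 0. Where the limit or filter was moved this comes from that choice itself. Smaller changes, such as 7 transferases higher after quantile normalization, are mostly left out. Transferases higher numbered 6, but 2 with a pseudocount of 5, 3 under a 5 FPKM minimum of the mean, 12 at a 1.5-fold limit and 0 at a 4-fold limit; with no filter 1 (Mgst2) was lower. Reductases lower numbered 2, but 1 with a pseudocount of 5, under a 5 FPKM minimum of the mean and at the 4-fold limit. With near-identical genes summed, 1 reductase was lower and 5 transferases were higher. This alternative, chosen after seeing the data, merges Akr1c12 with Akr1c13, Gsta1 with Gsta2 and Gstp1 with Gstp2. Genes of the other lists numbered 5 higher and 5 lower, but 8 higher with a pseudocount of 0.1, 1 and 1 with 5, 2 and 2 under a 5 FPKM minimum of the mean, 13 and 8 at 1.5-fold, and 0 and 1 at 4-fold. All genes numbered 284 higher and 603 lower, but 473 higher (903 lower) with a pseudocount of 0.1, 106 and 223 with 5, 143 and 272 under a 5 FPKM minimum of the mean, 803 and 1471 at 1.5-fold, 66 and 171 at 4-fold, and 180 higher without small RNA and predicted genes. With a pseudocount of 0.1, 8 transferases were at least 2-fold higher, beside 3.51% of all genes. No paired analysis was possible because each group has 1 library. Depth limits the low members: Gsta1, Gsta3, Akr1c12 and Akr1c13 rest on 4 to 11 estimated fragments in the library where they are lower.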
